A study of Mus musculus with 66 samples.

Results

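The thioredoxin and peroxiredoxin system was followed in developing mouse lung through 10 genes: the thioredoxins Txn1 and Txn2, the thioredoxin reductases Txnrd1 and Txnrd2, the thioredoxin-binding protein gene Txnip, the sulfiredoxin Srxn1 and the peroxiredoxins Prdx2, Prdx3, Prdx5 and Prdx6. A gene was represented by the brightest, over all 66 arrays, of the probe sets whose annotation gives that gene alone. By this rule 8 of the 10 genes were measured, with 21 probe sets among them, of 18193 genes in all. Prdx5 and Prdx6 had no such probe set in the annotation used and were not analysed here. The samples were 66 lung homogenates, each hybridised to its own Affymetrix array, in 22 groups of 3. Of these, 11 groups were Nrf2-/- mice (knockout, KO) and 11 were Nrf2+/+ mice (wild type, WT), both at 4 embryonic ages (E13.5 and E15.5, then E17.5 and E18.5, in days) and 7 postnatal ages (PND0 on the day of birth, then PND1, PND2, PND3, PND4, PND14, PND42). No treatment is named in the labels. Each sample was the lung of a single animal, except at E13.5, where several lungs were pooled. Samples within a group are described as biological replicates, with no strain, sex or litter given, and the labels name no promoter or cell type for the deletion.

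Thioredoxins are small proteins that reduce disulfide bonds in other proteins, and thioredoxin reductases, which are selenoproteins, recharge them with electrons from NADPH. Txn1 and Txnrd1 encode the cytosolic pair, and Txn2 and Txnrd2 the mitochondrial pair. Peroxiredoxins break down hydrogen peroxide and are in turn reduced by thioredoxin, with Prdx2 in the cytosol and Prdx3 in mitochondria. Sulfiredoxin restores peroxiredoxins whose active cysteine has been overoxidised. Txnip binds reduced thioredoxin and limits its use, and also holds back glucose uptake. Nrf2, encoded by Nfe2l2, is a transcription factor that binds antioxidant response elements, and Txnrd1 and Srxn1 are well known among its targets.

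All values are log2(signal + 16) after quantile normalization, and each difference is KO minus WT on that scale unless another direction is given, so differences of dim genes are understated. The 24 arrays of PND1 to PND4 had been deposited at a lower scale than the 42 others (2% trimmed means of 171.7 to 307.14, against 500). Steps from one age to another were therefore kept within one of these array sets. The F tests over the 11 ages, the comparison of postnatal with embryonic ages and the likeness of profiles span both sets. Nfe2l2 signal on its brighter probe set ran 4.41 to 8.26 in KO and 10.49 to 12.25 in WT, with no overlap. KO E13.5 ran 5.43 to 8.26, and no other KO library was above 6.16. The dimmer Nfe2l2 probe set, of mean 6.53, was higher in KO in the average over ages (0.51, limma adjusted p = 0.00013). At single ages it stood at 3.27 at PND0, -1.93 at PND1 and 2.09 at PND3 (adjusted p of 5.3e-11, 8.9e-05 and 4.9e-06). Libraries labelled KO E17.5 and KO E18.5 stood in the reverse order on a scale of 2486 genes that runs from 0 at WT E15.5 to 1 at WT PND0 (0.79 ± 0.05 and 0.44 ± 0.09, against 0.59 ± 0.07 and 0.83 ± 0.12 at WT E17.5 and WT E18.5, SD, n = 3 each). Club cell markers, 5 of 5 measured, averaged 7.84 to 12.13 in libraries labelled KO E13.5 and 6.30 to 6.78 in WT E13.5. In 1 of 3 WT PND14 libraries, replicate 2, thymocyte markers averaged 11.63 and cell cycle genes 12.14, against 6.01 to 6.41 and 8.74 to 8.91 in KO PND14 libraries. The log2 ratio of 3' to 5' Gapdh control signal, a sign of RNA quality, was 0.77 to 1.37 in KO and 0.24 to 1.01 in WT at PND14, 0.43 to 0.66 in KO and 0.06 to 0.45 in WT at PND42, and below 0 in all other groups. Lung markers were present, among them Sftpc, the surfactant protein of type 2 cells, at 10.97 to 14.83.

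Txnrd1 and Prdx2 were lower in knockout lungs when the 11 ages were averaged. Txnrd1, the cytosolic thioredoxin reductase, was lower by a log2 difference of -0.32 ± 0.04 (SE, 33 libraries per genotype, limma adjusted p = 4.4e-08), and its mean was below WT at 10 of 11 ages. Prdx2, the cytosolic peroxiredoxin, differed by -0.22 ± 0.03 (adjusted p = 3.4e-07), also below WT at 10 of 11 ages. That many lower means were seen for 1.11% of all probe sets. For both genes the exception was E18.5, and the count rests on the KO labels at E17.5 and E18.5. The other 6 genes did not pass the threshold of 0.05: Txnip stood at 0.12 ± 0.05 (adjusted p = 0.072), Prdx3 at -0.10 ± 0.04 (adjusted p = 0.071) and Txn2 at 0.09 ± 0.04 (adjusted p = 0.10). Srxn1 stood at -0.15 ± 0.07 (adjusted p = 0.20), Txnrd2 at -0.07 ± 0.06 (adjusted p = 0.52) and Txn1 at -0.03 ± 0.03 (adjusted p = 0.59). The 2 of 8 genes called compare with 10.6% of all 45037 probe sets, and 5.25% of all were called lower. The median difference of the 8 genes was -0.084, beside 0.007 over all probe sets. Leaving out E17.5 and E18.5, where the KO order goes against the labels, gave -0.42 for Txnrd1 (adjusted p = 6.6e-10) and -0.26 for Prdx2 (adjusted p = 1.3e-06), and brought Prdx3 (-0.18, adjusted p = 0.0025) and Txnip (0.16, adjusted p = 0.024) past the threshold. Both Txnrd1 and Prdx2 were also lower in each array set alone, Txnrd1 at -0.34 for PND1 to PND4 and -0.31 for the 7 other ages, and Prdx2 at -0.26 and -0.20. These are whole-tissue signals, in which fewer cells of a type and less RNA per cell cannot be told apart.

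**Figure D1:**
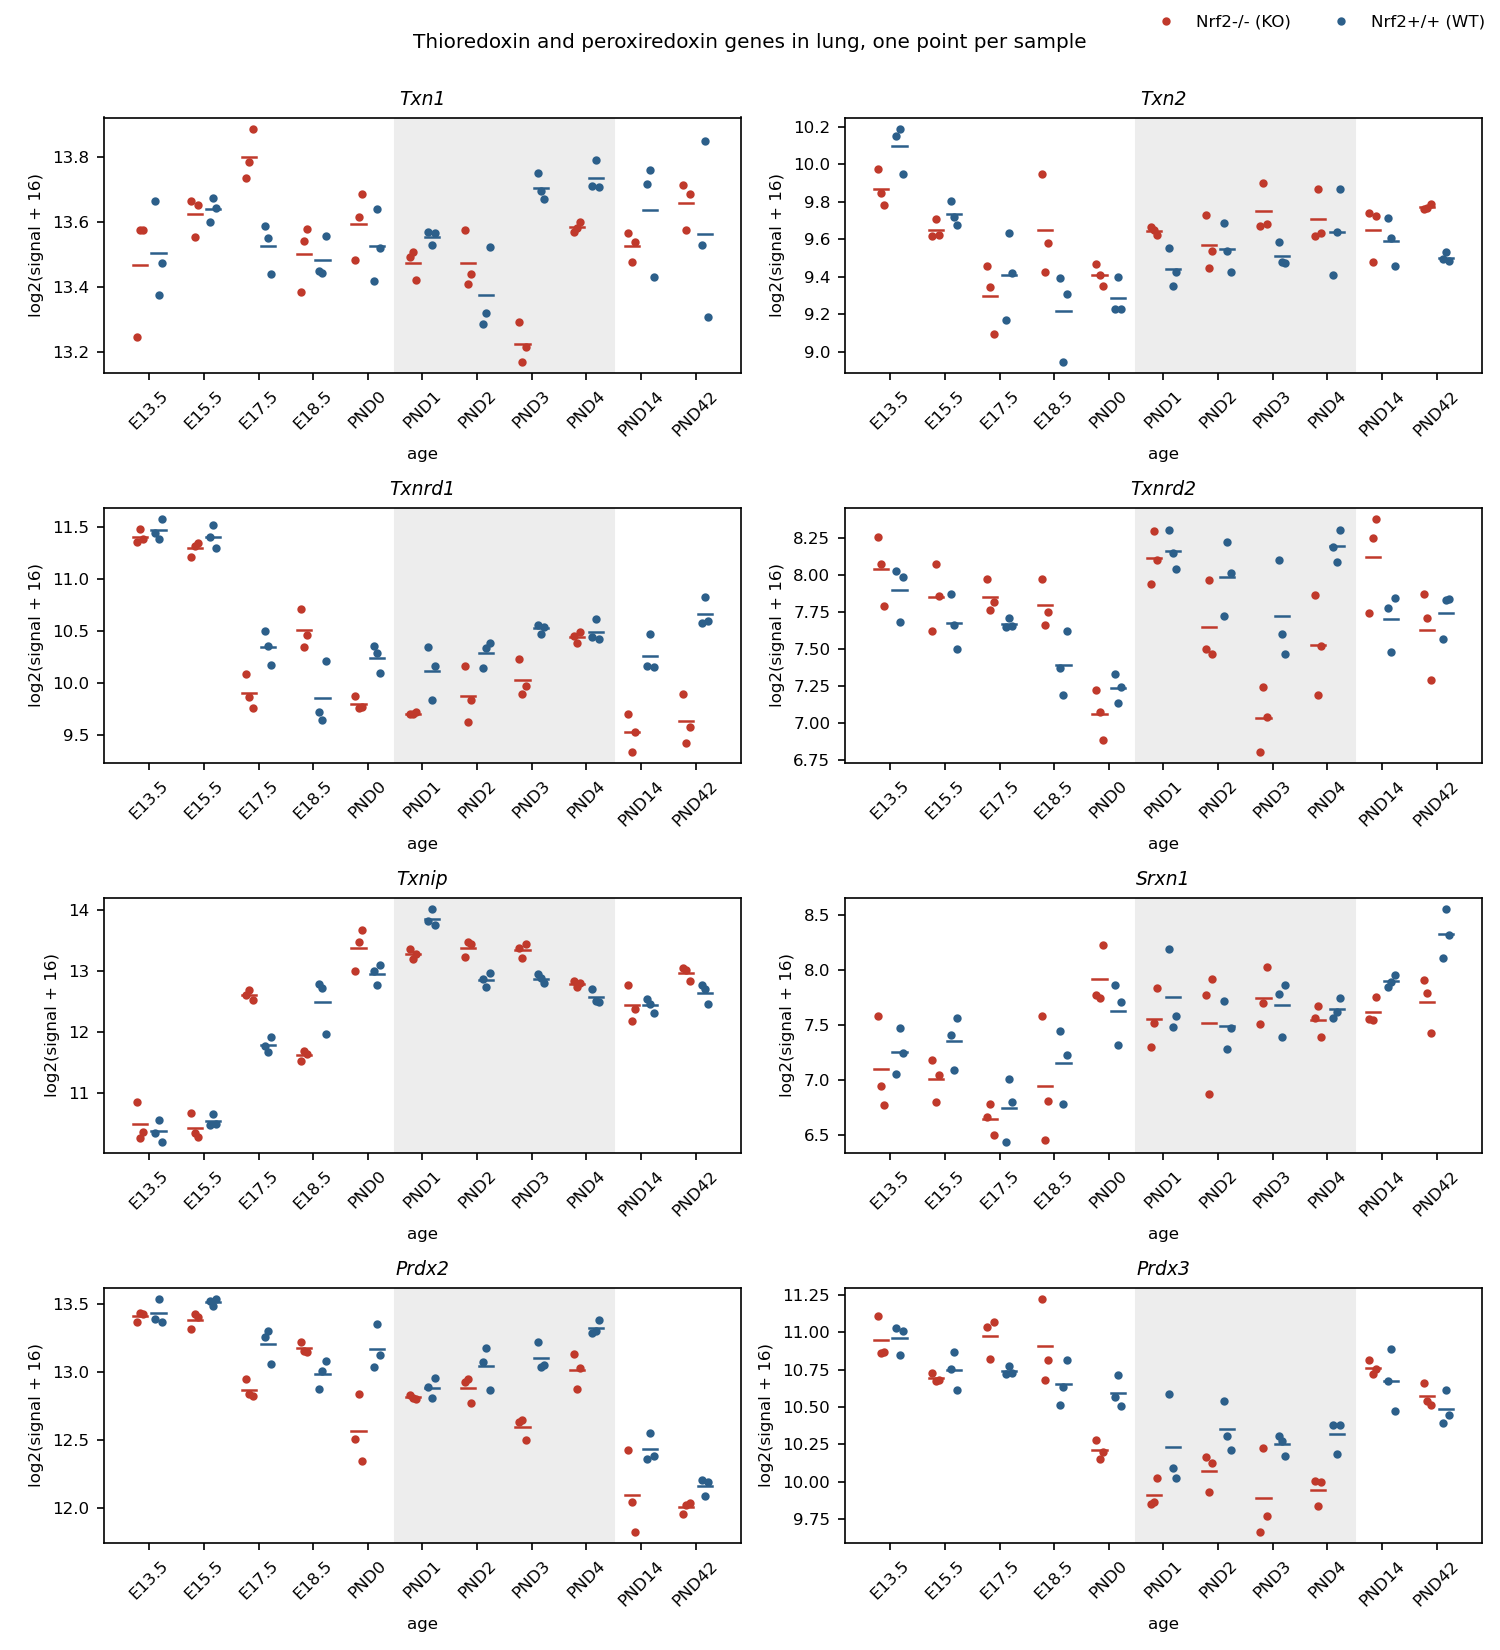
Each panel shows 1 gene, with log2(signal + 16) of every sample by age, KO in red on the left and WT in blue on the right of each age, and a bar at the mean of 3 samples; grey marks PND1 to PND4, whose arrays were scaled differently before deposit, and each panel has its own vertical range. Txnrd1 at PND42 lay at 9.43 to 9.89 in KO and 10.58 to 10.82 in WT, and Txnip lay below 10.9 in every sample of E13.5 and E15.5.

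The promoters of the members were searched because Nrf2 binds antioxidant response elements. The window was the 250 bases before the gene start in the RefSeq table of build GRCm38.p6, in which all 8 measured genes had an entry. The motifs were TGACNNNGC, on both strands, found in 10.2% of 32851 promoters, and TGAGTCAGC, on both strands, found in 0.347% of them. No stretch can match both motifs. Srxn1 and 1 of 3 Txnrd1 promoters held a match, and none was found in the windows of Txn1, Txn2, Txnrd2, Txnip, Prdx2 or Prdx3. The Srxn1 and matching Txnrd1 windows are shown, with that of Prdx2, the other gene called in the average over ages, all from the plus strand, 5′ to 3′, with the match in capitals. The Srxn1 window is chr2:152105274-152105523, the Txnrd1 window chr10:82858956-82859205 and the Prdx2 window chr8:84969372-84969621.
Srxn1: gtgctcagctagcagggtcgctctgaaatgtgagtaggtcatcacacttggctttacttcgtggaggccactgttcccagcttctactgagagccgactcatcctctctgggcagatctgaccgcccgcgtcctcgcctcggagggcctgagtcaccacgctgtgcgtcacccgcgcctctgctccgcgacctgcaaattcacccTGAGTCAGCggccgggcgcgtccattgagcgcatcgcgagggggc
Txnrd1: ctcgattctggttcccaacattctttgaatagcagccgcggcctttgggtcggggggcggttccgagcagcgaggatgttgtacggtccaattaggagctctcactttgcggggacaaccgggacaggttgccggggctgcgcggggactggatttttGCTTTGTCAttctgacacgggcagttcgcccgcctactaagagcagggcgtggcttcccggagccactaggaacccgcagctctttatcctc
Prdx2: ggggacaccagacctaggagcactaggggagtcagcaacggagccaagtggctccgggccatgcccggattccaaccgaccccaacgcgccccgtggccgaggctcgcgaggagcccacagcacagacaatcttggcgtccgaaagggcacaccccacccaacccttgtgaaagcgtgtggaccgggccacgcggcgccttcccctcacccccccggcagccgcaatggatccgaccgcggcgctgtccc
The Srxn1 match, TGAGTCAGC, lies 45 bases before the gene start at chr2:152105479-152105487. In Txnrd1 the match reads TGACAAAGC on the minus strand, at chr10:82859114-82859122, 92 bases before the start. Of these 3 genes, Txnrd1 and Prdx2 were called lower in the average over ages, and Srxn1 was not. With values as deposited, without quantile normalization, Srxn1 was called too (-0.24, limma adjusted p = 0.028). Srxn1 lies on chromosome 2, as does the deleted Nfe2l2, with 547 measured genes between them.

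At single ages the KO minus WT difference of these genes changed sign and size. Of 88 tests (8 genes at 11 ages) 17 passed, 12 lower and 5 higher in KO. No gene passed at E13.5, E15.5 or PND4, where 1.54%, 0.127% and 0.486% of all probe sets did. At an unadjusted p under 0.05 the counts there were 0, 0 and 3. At E17.5 1 gene was higher, beside 1.22% of all probe sets called, 0.844% higher and 0.377% lower. At E18.5 2 genes were higher and 1 lower (8.75% of all called, 4.72% higher and 4.03% lower). The calls at E17.5 and E18.5 rest on the KO labels, whose order goes against maturation at these ages. At PND0 3 genes were lower (10.7%, 5.07% and 5.66%), at PND1 1 gene was lower (2.05%, 1.25% and 0.804%) and at PND2 1 gene was higher (5.96%, 2.72% and 3.24%). PND3 had the most calls, 5 of the 8 genes, 1 higher and 4 lower, against 8.08% of all probe sets (3.57% higher and 4.51% lower), and the median difference of the 8 genes was -0.42. At PND14 2 genes were lower (8.2%, 3.28% and 4.93%) and at PND42 1 gene was lower (5.68%, 2.46% and 3.22%).

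**Figure D2:**
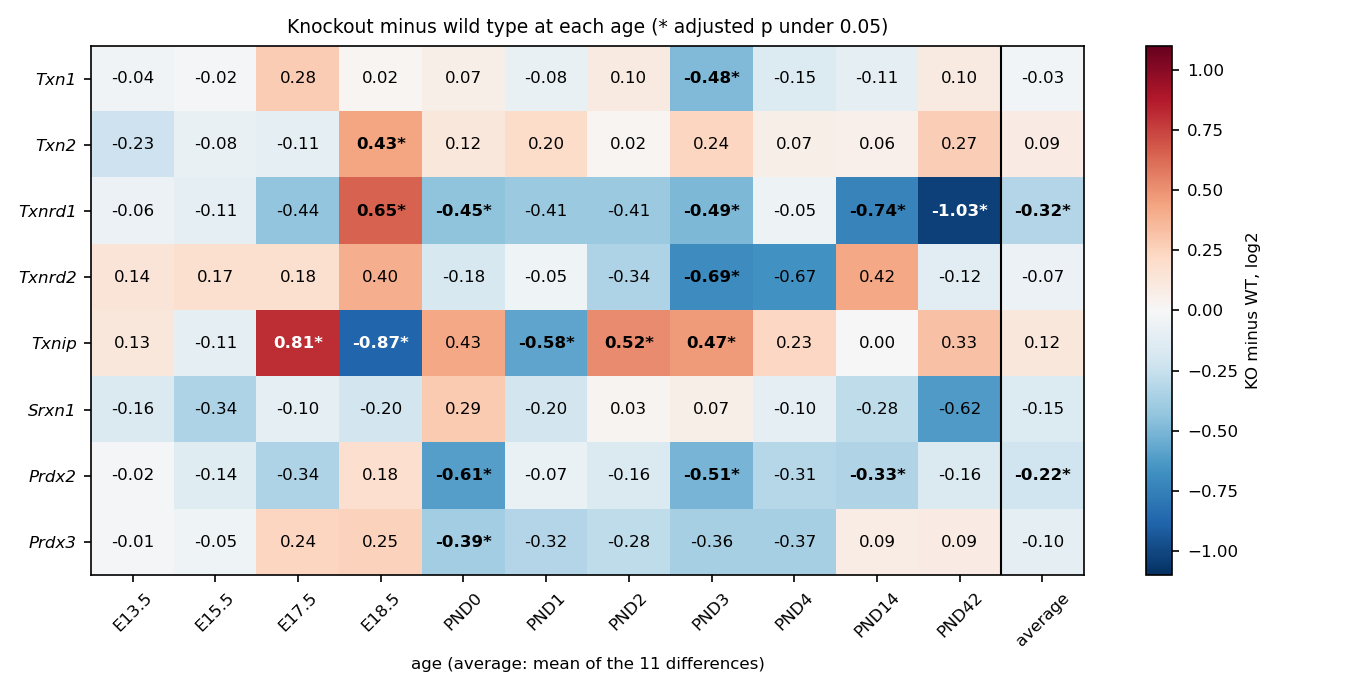
The grid gives the KO minus WT difference in log2 for each gene (rows) at each age and averaged over the ages (last column), red where KO was higher and blue where it was lower, with an asterisk where the adjusted p was under 0.05. Txnrd1 reaches -1.03 at PND42, and Txnip changes from 0.81 in libraries labelled E17.5 to -0.87 in those labelled E18.5.

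Txnrd1 showed its largest differences in the 2 oldest groups. At PND42 it measured 9.89, 9.43 and 9.58 in KO lungs, against 10.58, 10.82 and 10.59 in WT lungs. The groups lay apart by more than the spread within either, and KO was 2.04-fold lower (-1.03 ± 0.13, n = 3 per group, limma adjusted p = 2.1e-07). At PND14 it measured 9.70, 9.34 and 9.53 in KO lungs, against 10.16, 10.47 and 10.15 in WT lungs, again without overlap (-0.74 ± 0.13, adjusted p = 0.00025). Groups lay apart with KO lower for 6.65% of all probe sets at PND14 and 12.4% at PND42. The Gapdh ratio was higher in KO at both ages: with it as a covariate the PND42 difference was -0.89 (adjusted p = 6e-06) and the PND14 difference was -0.52 (adjusted p = 0.06). From the 6 arrays of each age alone the adjusted p was 0.0025 at PND42 and 0.62 at PND14. Cell cycle genes were also lower in KO at PND14 (6 of 6 measured, median -1.82). Without WT PND14 replicate 2, the library with high thymocyte and cell cycle signal, 2 of the 6 were called lower (median -1.02), and the Txnrd1 difference was -0.63 (adjusted p = 0.012). At PND42 alveolar macrophage markers averaged 9.79 to 10.07 in KO and 10.36 to 10.66 in WT (1 of 5 called lower), cell cycle genes 8.32 to 8.41 in KO and 8.60 to 8.92 in WT, and ciliated cell markers 9.02 to 9.30 in KO and 8.65 to 8.83 in WT. Their part in the Txnrd1 difference was not tested.

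Around birth the Txnrd1 difference was smaller. At PND3 it measured 9.89 to 10.23 in KO and 10.47 to 10.56 in WT (-0.49 ± 0.13, adjusted p = 0.011), and at PND0 9.76 to 9.87 in KO and 10.09 to 10.35 in WT (-0.45 ± 0.13, adjusted p = 0.019). The PND0 call was lost without any of KO replicates 2 and 3 and WT replicates 1 and 2 (limma adjusted p of 0.068 to 0.095). The PND3 call was lost without KO replicate 2 or 3 (adjusted p of 0.077 and 0.055). The PND0 call was also lost with values as deposited (adjusted p = 0.066) and with array medians subtracted (adjusted p = 0.12), and the PND3 call with array medians subtracted (adjusted p = 0.051). PND1 (-0.41, adjusted p = 0.094), PND2 (-0.41, adjusted p = 0.051) and E17.5 (-0.44, adjusted p = 0.095) gave differences of a like size that did not pass. At PND4 it measured 10.38 to 10.49 in KO and 10.42 to 10.61 in WT, and these overlap (-0.05, adjusted p = 0.96). The libraries labelled E18.5 went the other way, at 10.71, 10.34 and 10.46 in KO against 9.72, 9.64 and 10.21 in WT (0.65 ± 0.13, adjusted p = 0.00079). From the 6 arrays of E18.5 alone that call was lost (adjusted p = 0.075), as were those of Txnip (adjusted p = 0.054) and Txn2 (adjusted p = 0.20) at this age. In that comparison cell cycle genes were higher in KO (4 of 6 called, list means of 11.55 to 11.87 in KO and 10.18 to 11.08 in WT), and their part in the result was not tested.

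Txnrd2, the mitochondrial reductase, was lower at PND3, at 6.81 to 7.25 in KO and 7.47 to 8.10 in WT (-0.69 ± 0.18, adjusted p = 0.0098). That call was lost without KO replicate 1 (adjusted p = 0.073) or WT replicate 1 (adjusted p = 0.13), and from the 6 arrays of that age alone (adjusted p = 0.10). At PND4 the difference was close to it without passing (-0.67, adjusted p = 0.084), and at PND14 it pointed the other way (0.42, adjusted p = 0.15). Txn1, the cytosolic thioredoxin, stayed within 13.17 to 13.89 in all KO libraries and 13.29 to 13.85 in all WT libraries. Its mean lay above that of 99.5% of all probe sets, and this narrow range depends on the scaling. At PND42 its difference was 0.10 here, 0.32 with values as deposited and 0.34 with array medians subtracted. It differed at PND3, where it measured 13.17, 13.21 and 13.29 in KO against 13.67, 13.70 and 13.75 in WT (-0.48 ± 0.09, adjusted p = 0.00027). Txn2, the mitochondrial thioredoxin, was higher in libraries labelled KO E18.5 (9.43 to 9.95, against 8.95 to 9.39 in WT, 0.43 ± 0.12, adjusted p = 0.014). This was not called without KO replicate 1 (adjusted p = 0.24) or WT replicate 2 (adjusted p = 0.22).

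Prdx2 was lowest relative to WT at PND0, at 12.34 to 12.84 in KO and 13.03 to 13.35 in WT (-0.61 ± 0.10, adjusted p = 1.4e-05). At PND3 it measured 12.50, 12.64 and 12.64 in KO against 13.03, 13.05 and 13.22 in WT (-0.51 ± 0.10, adjusted p = 0.00039). Both calls held without each library in turn. At PND14 the groups overlapped, at 11.83 to 12.42 in KO and 12.36 to 12.55 in WT (-0.33 ± 0.10, adjusted p = 0.027). The PND14 call was lost without KO replicate 2 or 3 (adjusted p of 0.089 and 0.30) or WT replicate 2 (adjusted p = 0.26), and with the Gapdh ratio as a covariate (adjusted p = 0.42). It was also lost under each of the 3 other scalings (adjusted p of 0.17 to 0.51) and from the 6 arrays of that age alone (adjusted p = 0.65). Red cells hold much Prdx2 protein, so the erythroid list is given beside it. Its 7 measured genes averaged 7.46 to 7.88 in KO and 8.07 to 8.15 in WT at PND3 (1 of 7 called lower). Their summed signal before the log overlapped at PND3, at 8060 to 11063 in KO and 7447 to 9258 in WT. At PND0 the list mean over libraries was 8.12 in KO and 8.13 in WT. Of the 7 genes, Hba-a1, Hbb-bh1 and Epb42 were dim, with medians of 5.02, 5.29 and 5.60 over the 66 libraries. The list mean is therefore a limited measure of red cells. The part of red cells in the Prdx2 differences was not tested. At PND0 cell cycle genes averaged 8.88 to 9.17 in KO and 9.43 to 10.49 in WT (1 of 6 called lower). Prdx3, the mitochondrial peroxiredoxin, was lower at PND0, at 10.15 to 10.28 in KO and 10.51 to 10.71 in WT (-0.39 ± 0.12, adjusted p = 0.034). Leaving out KO replicate 2 or 3, or WT replicate 1 or 2, ended that call (adjusted p of 0.064 to 0.17), as did the replicate number as a block (adjusted p = 0.057), values as deposited (adjusted p = 0.080), array medians subtracted (adjusted p = 0.15) and no intensity trend (adjusted p = 0.051). From PND1 to PND4 its differences were -0.37 to -0.28, none past the threshold alone, and at PND14 and PND42 it stood at 0.09.

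At PND3 the calls on Txn1, Txnrd1, Txnrd2 and Prdx2 came with other differences between the libraries. Cell cycle genes averaged 10.06 to 10.66 in KO and 11.06 to 11.30 in WT, with 1 of 6 called lower. Alveolar macrophage markers averaged 8.25 to 8.53 in KO and 8.70 to 9.34 in WT (1 of 5 called lower), endothelial markers 11.45 to 11.71 in KO and 11.18 to 11.24 in WT, and type 2 cell markers 13.61 to 13.72 in KO and 13.35 to 13.51 in WT. Ciliated cell markers (8.01 to 8.11 in KO, 8.17 to 8.41 in WT) and club cell markers (13.82 to 13.92 in KO, 13.98 to 14.05 in WT) lay apart too. Liver markers had 2 of 5 called lower and skeletal muscle markers 3 of 5 called higher in KO. The part of these in the PND3 differences was not tested.

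On its brightest probe set, Srxn1 passed at no age in the limma fit, and had an unadjusted p under 0.05 at 1 age. Its difference was largest at PND42, where it measured 7.90, 7.79 and 7.42 in KO lungs against 8.11, 8.55 and 8.32 in WT lungs. The groups did not overlap, which 12.4% of all probe sets also showed with KO lower at PND42. The difference of -0.62 ± 0.24 had a limma adjusted p of 0.13. A dimmer Srxn1 probe set, of mean 6.16, did pass at PND42, at 4.86 to 5.54 in KO and 6.25 to 6.85 in WT (-1.36 ± 0.40, adjusted p = 0.029). That call was lost without KO replicate 1 or 2 or WT replicate 1 or 2 (adjusted p up to 0.15). At PND14 the brightest probe set measured 7.55, 7.54 and 7.75 in KO and 7.84, 7.89 and 7.95 in WT (-0.28 ± 0.24, limma adjusted p = 0.52). These were also apart, as were 6.65% of all probe sets with KO lower at PND14. At PND0 the sign was opposite (0.29, adjusted p = 0.56). The SE of Srxn1 at a single age, 0.24, was the widest among the 8 genes, so smaller effects were less detectable for it than for Prdx2 or Txnrd1.

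Txnip moved in both directions. It was higher in libraries labelled KO E17.5, at 12.52 to 12.69 against 11.67 to 11.93 in WT (0.81 ± 0.15, adjusted p = 0.0009). In libraries labelled KO E18.5 it was lower, at 11.53 to 11.70 against 11.98 to 12.78 in WT (-0.87 ± 0.15, adjusted p = 7.8e-05). These are the 2 ages at which the KO libraries stood in the reverse order of maturation, and Txnip rose between E15.5 and PND0 in WT. The mean of the libraries labelled KO E17.5, 12.60, lay next to that of WT E18.5, 12.50, and the mean of those labelled KO E18.5, 11.62, next to that of WT E17.5, 11.79. Whether the 2 KO labels were exchanged was not tested, and the turn of sign rests on them. After birth it was lower in KO at PND1 (13.20 to 13.35, against 13.75 to 14.01 in WT, -0.58, adjusted p = 0.025), then higher at PND2 (13.23 to 13.48, against 12.73 to 12.98, 0.52, adjusted p = 0.026) and at PND3 (13.22 to 13.44, against 12.80 to 12.95, 0.47, adjusted p = 0.042). The groups lay apart in each of these comparisons, as they did in the same direction for 12.2%, 12.7%, 8.95%, 10.6% and 13.8% of all probe sets, in the order of age. The 3 postnatal calls on this probe set did not hold without every library: PND1 was lost without any library but WT replicate 3 (adjusted p up to 0.15), PND2 without KO replicates 2 or 3 or WT replicates 1 or 2 (adjusted p up to 0.12), and PND3 without any library but KO replicate 2 (adjusted p up to 0.15). On the second Txnip probe set, of mean 10.38, the difference was 0.91 at PND2 (adjusted p = 0.0025) and 0.87 at PND3 (adjusted p = 0.0023), and both calls held without each library of those ages, while PND1 was not called (-0.67, adjusted p = 0.06). At PND2 thymocyte markers were higher in KO (4 of 5 called), and their part was not tested. On the first probe set the PND1 call was also lost with values as deposited (adjusted p = 0.089) and with array medians subtracted (adjusted p = 0.11), and the PND2 call with values as deposited (adjusted p = 0.13) and with array weights (adjusted p = 0.055). The PND3 call was lost with array medians subtracted (adjusted p = 0.19), without the intensity trend (adjusted p = 0.064) and with the replicate number as a block (adjusted p = 0.052), and with values as deposited the difference was 0.17 (adjusted p = 0.61), where the median of all probe sets shifted by -0.20. With array medians subtracted that median shifted by 0.12 at PND2.

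The size of the knockout effect depended on age for 7 of the 8 genes, against 28.3% of all probe sets (F test over the 11 ages, limma). The adjusted p was 2.07e-07 for Txnip, 2.3e-07 for Txnrd1, 0.000558 for Prdx2, 0.00186 for Txnrd2, 0.00195 for Txn1, 0.00334 for Prdx3 and 0.0499 for Txn2. Srxn1 did not pass (adjusted p = 0.614). The call on Txn2 changed without any 1 of 47 of the 66 libraries (adjusted p up to 0.11), and the other 6 calls held without each library. The F test includes E17.5 and E18.5, where the KO order goes against the labels. Leaving out single libraries does not address this. A comparison of the 7 postnatal with the 4 embryonic ages, chosen after seeing the data, gave a lower effect after birth for 4 of the 8 genes, against 6.67% of all probe sets, 3.38% with a lower effect. Txnrd1 averaged -0.51 after birth, below WT at 7 of 7 ages, and 0.01 before birth, a difference of -0.52 ± 0.08 (adjusted p = 3.1e-05). For Txnrd2 the difference was -0.46 ± 0.11 (adjusted p = 0.0087), for Prdx3 -0.33 ± 0.08 (adjusted p = 0.0053) and for Prdx2 -0.23 ± 0.06 (adjusted p = 0.017). Without E17.5 and E18.5 the Txnrd1 difference was -0.42 (adjusted p = 0.0079), while Txnrd2 (adjusted p = 0.17), Prdx3 (adjusted p = 0.32) and Prdx2 (adjusted p = 0.13) no longer passed. Prdx2 was also not called with values as deposited (adjusted p = 0.18), array medians subtracted (adjusted p = 0.36), arrays scaled to 1 trimmed mean (-0.11, adjusted p = 0.42), the Gapdh ratio as a covariate (adjusted p = 0.056) or without E13.5 (adjusted p = 0.077). At the 7 ages outside PND1 to PND4 the Txnrd1 difference was -0.75 (adjusted p = 2.3e-05), and Txnrd2 stood at -0.18 (adjusted p = 0.45) and Prdx3 at -0.18 (adjusted p = 0.21).

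With age itself, Txnip rose and Txnrd1 fell between E15.5 and PND0 in both genotypes. All 8 genes changed with age in KO and in WT (F tests, adjusted p under the threshold), against 70.6% of all probe sets in KO and 65.2% in WT. These F tests span both array sets. Txnip measured 13.00 to 13.67 in KO PND0 lungs against 10.28 to 10.69 in KO E15.5 lungs, and 12.77 to 13.10 in WT PND0 lungs against 10.48 to 10.66 in WT E15.5 lungs. No PND0 library came near the E15.5 range, and PND0 minus E15.5 was 2.94 in KO and 2.41 in WT (adjusted p = 6.7e-22 and 5.2e-18). Txnrd1 fell over the same step by 1.49 in KO and by 1.16 in WT (adjusted p = 8.9e-14 and 5.1e-10). Cell cycle genes averaged 8.88 to 9.17 in KO PND0 against 12.29 to 12.37 in KO E15.5, and 9.43 to 10.49 in WT PND0 against 12.19 to 12.24 in WT E15.5, and their part in these steps was not tested.

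Over that step, PND0 minus E15.5, 6 of 8 genes were called in KO (35.2% of all probe sets) and 4 of 8 in WT (27.4%). Prdx2 fell by 0.82 in KO and by 0.34 in WT, and this difference between genotypes passed (-0.47 ± 0.14, adjusted p = 0.041), where 4.2% of all probe sets did. It was the only one of 40 step differences between genotypes that passed, and it was lost without any 1 of 9 libraries (adjusted p up to 0.21). The fall of Prdx2 in WT itself was not called without WT PND0 replicate 1 (adjusted p = 0.063). Srxn1 rose by 0.91 in KO (adjusted p = 0.0017), Txnrd2 fell by 0.79 and Prdx3 fell by 0.49 in KO, and Txn2 fell by 0.45 in WT (adjusted p = 0.0026).

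From PND0 to PND14, 4 genes were called in KO (30.7% of all probe sets) and 2 in WT (13.6%). Txnip fell by 0.94 in KO and by 0.52 in WT, and Prdx2 fell by 0.46 in KO and by 0.74 in WT. In KO, Txnrd2 rose by 1.06 (adjusted p = 6.3e-06) and Prdx3 rose by 0.55 (adjusted p = 0.00037). From PND14 to PND42, 1 gene was called in KO (12% of all probe sets), Txnip, which rose by 0.53, and 1 in WT (14.8%), Txnrd1, which rose by 0.40 (adjusted p = 0.028). Txnrd1 stood at 0.11 over this step in KO. Within the early postnatal array set, PND4 minus PND1, 3 genes were called in KO (7.88% of all probe sets) and 2 in WT (9.79%). Txnip fell by 0.48 in KO and by 1.29 in WT. Txnrd1 rose by 0.74 in KO (adjusted p = 0.00011), with 0.38 in WT (adjusted p = 0.057). Txnrd2 fell by 0.59 in KO (adjusted p = 0.034), and Prdx2 rose by 0.44 in WT (adjusted p = 0.0017). The 1 call from E13.5 to E15.5 was Txn2 in WT, which fell by 0.36 at the threshold itself (adjusted p of 0.05 when rounded), with -0.22 in KO, where 2.83% of all probe sets were called in KO and 7.6% in WT. That call was lost without any 1 of 45 libraries. Lost without single libraries of their own groups were also the steps of Txnrd1 from PND14 to PND42 in WT (PND14 replicates 1 and 3, PND42 replicate 2, adjusted p up to 0.16) and of Txnrd2 from PND1 to PND4 in KO (replicates 2 and 3 of both ages, adjusted p up to 0.25). For Txnip this held for PND0 to PND14 in WT (PND0 replicates 1 and 3, PND14 replicate 3, adjusted p up to 0.088), PND14 to PND42 in KO (PND14 replicates 2 and 3, PND42 replicate 1, adjusted p up to 0.13) and PND1 to PND4 in KO (each of the 6 libraries, adjusted p up to 0.11).

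**Figure D3:**
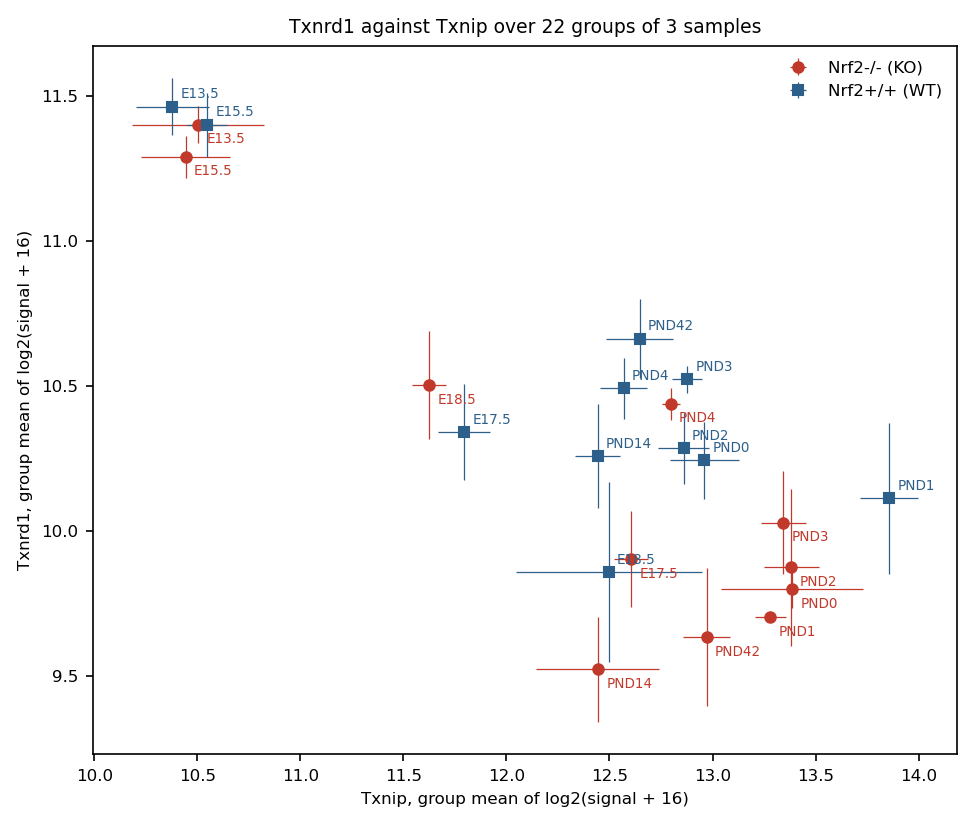
Each point is a group of 3 samples, with mean Txnip on the horizontal and mean Txnrd1 on the vertical axis in log2(signal + 16), and bars of 1 SD; KO groups are red circles and WT groups blue squares. The 4 groups of E13.5 and E15.5 stand apart at low Txnip and high Txnrd1, and at each later age but E18.5 the KO mean of Txnrd1 is below the WT mean.

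Because the 4 groups of E13.5 and E15.5 stood apart, likeness between Txnrd1 and Txnip was described over the other 18 group means. These groups span both array sets, and both genes were read on the same arrays. Pearson's r was -0.36 there, -0.47 over the 9 KO groups and -0.17 over the 9 WT groups. Txnip and Prdx3 had r = -0.72 over the 18 groups, -0.77 in KO and -0.72 in WT. Txnrd1 and Prdx2 had r = 0.48 over the 18 groups, 0.79 in KO and -0.23 in WT. Over all 22 group means and 8514 other genes of at least 8 in mean log2 signal, the profile most like Txnip was that of Tspan2, a tetraspanin gene (r = 0.98), followed by Slc1a5, a glutamine transporter (0.98), and Cish, a cytokine signalling inhibitor (0.97). Txnrd1 was most like Senp1, a SUMO protease (0.92), Rpp30 (0.92) and Uhrf1bp1 (0.92). Prdx2 was most like Ssna1 (0.955), Smc4, a condensin subunit (0.93), and Mrpl3, a mitochondrial ribosomal protein (0.93). Prdx3 was most like Ndufb2, a subunit of respiratory complex I (0.94), Alkbh7 (0.94) and Mrpl39 (0.94). Lower values were reached by Srxn1 (Mgat5, 0.88, Pcif1 and Ntn1), Txn2 (Opa3, 0.89, Nxn and Gcn1), Txnrd2 (Trip4, 0.79, Ap3m1 and U2af1l4) and Txn1 (Tnik, 0.60, Zbtb41 and Nck1). The earliest ages weigh in all of these values.

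The other probe sets of these genes are dimmer by the rule that chose the first. The second Txnip probe set, of mean 10.38, had r = 0.87 with the first over the 66 arrays and an average difference of 0.14 (adjusted p = 0.12). The 2 other Txn2 probe sets, of mean 9.39 and 9.15, had r = 0.59 with the first. For Txnrd1 the 2 other probe sets were dim (means of 6.25 and 5.45), had r = 0.18 and 0.20 with the brightest and showed average differences of -0.01 and -0.18, neither called. For Prdx2 the other probe set, of mean 6.93, stood at -0.02. The Txnrd1 and Prdx2 results therefore rest on 1 probe set each. The 3 other Txnrd2 probe sets (means of 7.38, 7.27 and 6.91) had r of 0.25, 0.30 and 0.12 with the brightest. At PND3 they stood at 0.07, -0.13 and -0.28, none called, so the Txnrd2 call there rests on 1 probe set. In KO their means were 7.40, 7.26 and 6.59 at E15.5 and 7.35, 6.91 and 7.26 at PND0. At PND14 these were 7.13, 7.02 and 7.70. The Txnrd2 steps above were taken from the brightest alone. The other Txn1 probe set (mean of 6.23) had r = 0.01. Of the 3 other Srxn1 probe sets, 1 of mean 6.16 was called lower (-0.37, adjusted p = 0.039, lost without any 1 of 18 libraries). Of the others, 1 of mean 5.92 stood at 0.20 and 1 of mean 5.84 stood at -0.03. From E15.5 to PND0 in KO, these 3 went from 5.99 to 5.48, 5.96 to 5.79 and 5.56 to 6.10, in that order. The Srxn1 rise of 0.91 over this step was taken from the brightest alone.

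Genes around the system were counted in 4 lists. Of 25 measured thioredoxin-fold and peroxiredoxin relatives, 2 rose in KO in the average over ages and 1 fell, beside 5.31% and 5.25% of all probe sets, with a list median of -0.04. Those that rose were Txnl4b (0.17) and Txndc11 (0.13, lost without any 1 of 9 libraries, adjusted p up to 0.056), and the one that fell was Pdia4, a protein disulfide isomerase of the endoplasmic reticulum (-0.20). Prdx4, the endoplasmic reticulum peroxiredoxin, stood at 0.10 (adjusted p = 0.072). Of 16 clients and partners of thioredoxin and of the parallel glutathione system, 3 rose and 4 fell, with a list median of -0.01. Gclc and Gclm, subunits of the enzyme that starts glutathione synthesis and known Nrf2 targets, fell by 0.38 (adjusted p = 3.7e-10) and by 0.14 (adjusted p = 0.033). Rrm2, a subunit of the ribonucleotide reductase that thioredoxin reduces, fell by 0.43 (adjusted p = 0.023), and Msrb2, a mitochondrial methionine sulfoxide reductase, fell by 0.22 (adjusted p = 0.006). Sesn2 (0.38, adjusted p = 0.014) and Sesn1 (0.14, adjusted p = 0.023), which encode stress-induced sestrins, and Msrb3 (0.17, adjusted p = 0.027) rose. The call on Gclm was lost without any of 5 libraries, WT PND2 replicate 2, KO PND2 replicate 3, KO PND3 replicate 3, KO PND4 replicate 2 and KO PND14 replicate 3 (adjusted p up to 0.055). Gsr, glutathione reductase (-0.02), and Slc7a11, the cystine transporter (0.09), did not pass.

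The third list held 13 arrestin relatives, regulators of Txnip and genes that respond to glucocorticoids, chosen with earlier results of these data known. Of these, 6 passed, each higher in KO, with a list median of 0.18. Over all probe sets 10.6% were called and 5.31% were called higher. Per1, a clock gene (0.53, adjusted p = 8.1e-06), Klf15 (0.63, adjusted p = 0.00046) and Tsc22d3 (0.29, adjusted p = 0.0037), all known to respond to glucocorticoids, rose. The arrestin-domain genes Arrdc2 (0.30, adjusted p = 0.0018) and Arrdc3 (0.18, adjusted p = 0.0077) and Mlxipl, a glucose-responsive factor (0.46, adjusted p = 0.044), rose as well, the last lost without any 1 of 40 libraries (adjusted p up to 0.072). The calls depended on PND0 and PND3. Without both ages, left out after seeing the data and with fewer samples, none of the 6 was called in limma (adjusted p of 0.18 to 0.84). The averages were then 0.36 for Mlxipl, 0.18 for Arrdc2 and Per1, 0.14 for Tsc22d3, 0.12 for Arrdc3 and 0.07 for Klf15. Of the 13 genes 3 had an unadjusted p under 0.05, and the list median was 0.09. Klf15 stood at 3.11 at PND0 (adjusted p = 2.8e-07) and 3.14 at PND3 (adjusted p = 5e-07), against 0.07 in the average of the 9 other ages, with -0.81 at E18.5, -1.18 at PND1 and -0.70 at PND4, none of the last 3 called. The list median was farthest from 0 at PND0, where 9 of its 13 genes rose and 1 fell (median 0.93), beside 5.07% and 5.66% of all probe sets. Txnip itself at PND0 measured 13.00 to 13.67 in KO and 12.77 to 13.10 in WT and did not pass (0.43, adjusted p = 0.058). Its second probe set did pass there, at 10.77 to 11.40 in KO and 10.10 to 10.53 in WT (0.79 ± 0.20, adjusted p = 0.0044), and lost the call without KO replicate 3 or WT replicate 2 (adjusted p up to 0.056). The fourth list held 7 factors of selenoprotein synthesis, on which both reductases depend, and 4 other selenoproteins. Of the 7 factors 1 passed, Trnau1ap, which rose (0.11, adjusted p = 0.031), beside 5.31% of all probe sets, with a median of 0.02. That call was lost without WT E17.5 replicate 3 or KO E18.5 replicate 1 (adjusted p up to 0.053). None of the 4 selenoproteins, Selenow, Selenop, Selenot and Selenok, passed in the limma fit, with 1 of them under 0.05 by unadjusted p.

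**Figure D4:**
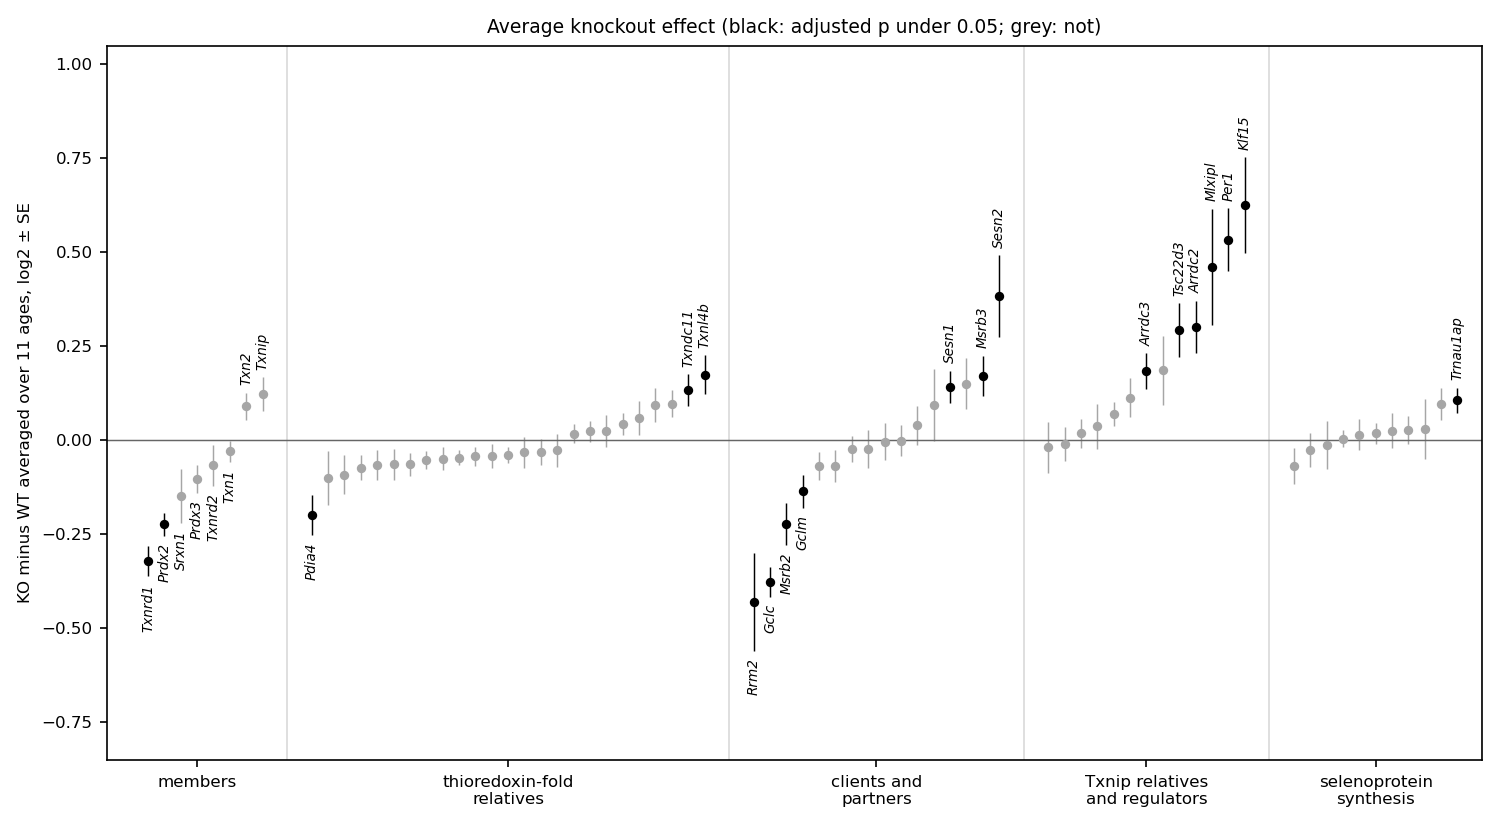
Each point is a gene, with its KO minus WT difference averaged over 11 ages in log2 and a bar of 1 SE, sorted within the 8 members and 4 lists; black points had an adjusted p under 0.05. Txnrd1 and Prdx2 are the black members, at -0.32 and -0.22. The 6 black genes of the list labelled for Txnip, which also holds genes that respond to glucocorticoids, all lie above 0.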

How the data were processed

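Per the submitters' processing notes GCOS was used, and the authors deposited linear intensity values, 1 for each probe set on an array; the software version and scaling target are not given in the sources used here. Quantile normalization over the 45101 probe sets preceded the transformation to log2(value + 16), and 64 controls were then left out. Symbols were updated through gene identifiers in the GRCm38.p6 gene table; of 45037 probe sets 34945 had 1 symbol, 932 several and 9160 none. One limma model (version 3.58.1, R 4.3.3) with a mean for each of 22 groups was fitted to all 66 arrays with an intensity trend. P-values are two-sided, adjusted by Benjamini-Hochberg over all 45037 probe sets at 0.05, and measure the spread between samples of a group. The fit was tested on simulated data. The members, lists, named genes and tests were chosen with earlier results of these data known. Genes named were the members, Nfe2l2, called list genes and the 3 most alike profiles; others are named for comparison. Alternatives covered scaling, pseudocount, filters, variance model, array weights, replicate block, Gapdh ratio, sets of ages and left-out libraries. Figures were drawn with matplotlib 3.10.9. The 3 arrays per group limit the precision.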

Additional observations from a re-analysis of the deposited data

Results flagged for a closer look

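The KO minus WT difference was unequal over the 11 ages for 7 genes (limma F test, adjusted p = 2.07e-07 for Txnip, 2.3e-07 for Txnrd1, 0.000558 for Prdx2, 0.00186 for Txnrd2, 0.00195 for Txn1, 0.00334 for Prdx3 and 0.0499 for Txn2). For Txnip the sign turned between the libraries labelled E17.5 (0.81) and E18.5 (-0.87) and again between PND1 (-0.58) and PND2 (0.52). For Txnrd1 the difference was 0.65 in the libraries labelled E18.5 and -1.03 at PND42. The F test includes E17.5 and E18.5, where the KO order goes against the labels. The fall of Prdx2 between E15.5 and PND0 was greater in KO than in WT (-0.82 and -0.34, adjusted p = 0.041 for the difference). The calls on Txn2 and on this step of Prdx2 were lost without any 1 of 47 and any 1 of 9 libraries.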

How the results depend on the processing

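The 2 genes called in the average over ages became 4 in several settings, and the added genes differed. With values as deposited these were Srxn1 (-0.24, limma adjusted p = 0.028) and Prdx3 (-0.14, adjusted p = 0.028). With array medians subtracted these were Txn2 (0.13, adjusted p = 0.027) and Txnip (0.18, adjusted p = 0.019). With dim probe sets left out these were Txnip (0.12, adjusted p = 0.045) and Prdx3 (-0.10, adjusted p = 0.044). The 2 genes also became 4 without E17.5 and E18.5. They became 6 at PND1 to PND4 alone and 6 at postnatal ages alone, and 0 at embryonic ages alone (chosen after seeing the data). The share of all probe sets called was not counted in the settings of this section. Whether the 8 genes differ there from the rest was therefore not tested. At PND1 to PND4 alone, with fewer samples, the effect depended on age for 2 genes, not 7, and age changed 5 genes in KO and 3 in WT, not 8. Leaving out each library in turn gave 2 to 3 genes for the average, 15 to 21 calls at single ages, 6 to 7 genes dependent on age, 8 to 8 changed with age in KO and 7 to 8 in WT, and 12 to 15 step calls in KO and 7 to 12 in WT. Txnrd1 and Prdx2 kept their average calls in every setting but the embryonic ages and their dimmer probe sets.

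Signs turned as follows, each without passing. Txn1 averaged 0.0142 with medians subtracted, 0.0427 at the 7 ages outside PND1 to PND4, 0.0607 at embryonic ages and 0.1112 on its dim probe set. At the same 7 ages Txnrd2 averaged 0.1465 and Prdx3 0.0306; at embryonic ages Txnrd2 averaged 0.2248, Prdx3 0.1064, Txnrd1 0.0093 and Txnip -0.0106. On dimmer probe sets Txnrd1 stood at 0.0075 at PND0, 0.0151 at PND3, 0.7217 at PND14, -0.387 at E18.5 and 0.0891 at PND42, Txnrd2 at 0.0734 and Prdx2 at 0.1426 at PND3, and Srxn1 at 0.2033 in the average. The cause was not tested.

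Replicate numbers did not pair the samples: 1 of 33 same-number pairs correlated above 0.1. With the replicate block, single-age calls went to 15 of 88, losing Prdx3 at PND0 (-0.3856, adjusted p = 0.057) and Txnip at PND3 (0.4661, adjusted p = 0.052), and the average stayed at 2 genes.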
